A study of Mus musculus with 10 samples.

Results

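The genes examined here encode the common gamma chain, receptor chains that work with it or with the IL-4 receptor, and the cytokine IL-15. They were taken by name as Il2rg, Il7r, Il21r, Il4ra, Il13ra1, Il2ra, Il15 and Il15ra. All 8 were found among the 24538 genes of the count files and among the 24460 of the FPKM table. RNA-seq had been done on macrophages sorted from lung metastases and from normal lungs, to find how the transcripts of the former differ. The mice were wild-type C57BL6/J females, 8 to 10 weeks old. Metastases of E0771-LG cells, a mouse mammary tumour line injected into the tail vein, were dissected and pooled from 2 to 4 mice for each sample. Metastasis-associated macrophages (MAMs) were their CD11B+CD11C- cells, and resident alveolar macrophages (RAMs) were the CD11B-CD11C+ cells of normal lungs. Both groups were gated as large (FSC hi) cells that were CD45+, F4/80+, LY6C- and MRC1+, and the digestion held alpha-amanitin and actinomycin D to stop transcription. There were 5 MAM libraries and 5 RAM libraries, with 55391447 to 87523247 counts on genes in MAMs and 50746305 to 72150650 in RAMs. The study's methods give a sample as either 1 mouse or metastases pooled from 1 to 5 mice, where the sample records give 2 to 4. P-values measure the spread between such samples.

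The common gamma chain is shared by the receptors for IL-2, IL-4, IL-7, IL-9, IL-15 and IL-21, each of which adds chains of its own to it. The shared chain carries JAK3 and those partner chains that signal carry JAK1, and their signals are passed on mainly by STAT5, STAT6 or STAT3. In macrophages, IL-4 and IL-13 act through IL-4RA, paired with the common gamma chain or with IL-13RA1, and STAT6 then switches on genes of alternative activation. IL-15 is made by macrophages and held on IL-15RA at their surface, where it is shown to lymphocytes.

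Of the 8 genes, 7 reached a mean FPKM of 1 in either group and were tested. FPKM is the authors' level scaled by transcript length and sequencing depth. The rule for a call was an adjusted p (quasi-likelihood test of edgeR, Benjamini-Hochberg) below 0.05 together with a fold change over 2. On that rule 6 were higher in MAMs and 0 lower, where 15.3% of all 11571 genes tested were called higher and 15.1% lower. DESeq2 and limma gave the same 6 and also 0 lower. In each of the 6 every MAM library lay above every RAM library, which held for 23.7% of the genes tested, with 21.2% wholly below. Il7r and Il21r passed the expression filter through MAMs alone, which fixed their direction, so these counts describe the genes and support nothing further. The median log2 fold change was 2.27 over the 7 genes and -0.015 over all genes tested. Scaling to the upper quartile or to library totals moved the median of all genes to -0.18 and -0.24, and differences are to be read against that shift. In sorted bulk samples, fewer cells of a type and less RNA per cell cannot be told apart.

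**Figure D1:**
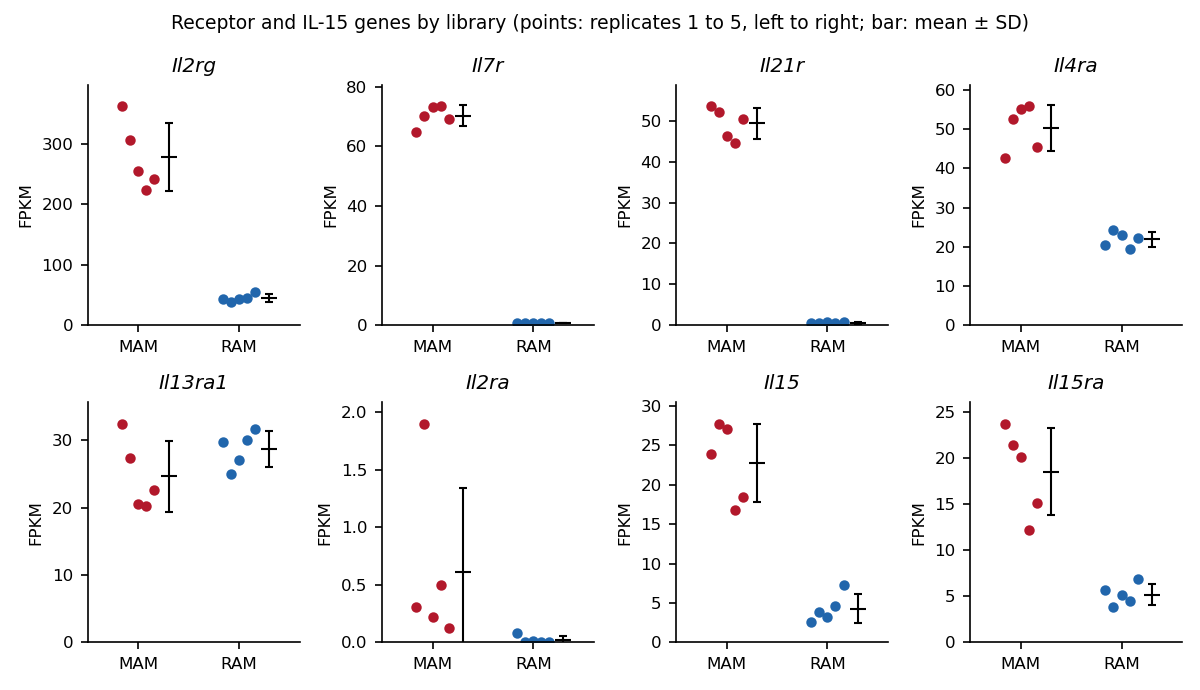
FPKM of each of the 8 genes in the 5 MAM and 5 RAM libraries (points, replicates 1 to 5 from left to right), with the group mean and SD beside them. Only Il13ra1 has overlapping groups, and Il2ra stays below 2 FPKM in every library.

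Il2rg, which encodes the common gamma chain itself, was the most abundant of the 8 genes in both groups by FPKM. It lies at chrX:101264378-101268255 of GRCm38 on the minus strand, and its longest annotated transcript has 8 exons. MAM replicates 1 to 5 had 362, 307, 255, 223 and 242 FPKM of Il2rg. RAM replicates 1 to 5 had 43.7, 37.8, 43.3, 44.5 and 54.7 FPKM. MAM replicate 1 was the highest library, and the lowest MAM library still lay far above the highest RAM library. On normalized counts the log2 fold change was 2.66 (SE 0.135, adjusted p = 2.28e-10, edgeR). Il2rg shares 728 exon bases with Gm20489, a gene annotated on the same strand, and not counted in the files, so its reads may be among those of Il2rg.

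Il7r encodes the private chain for IL-7, a chain that also serves the receptor for TSLP and is best known from lymphocytes. It lies at chr15:9505788-9530176 on the minus strand. Its FPKM in MAM replicates 1 to 5 was 64.9, 70.3, 73.3, 73.4 and 69.2. In RAM replicates 1 to 5 it was 0.791, 0.757, 0.762, 0.760 and 0.826. The libraries of each group lay close together, and the SD was 3.52 FPKM around a mean of 70.2 in MAMs. Behind these levels stood 12114 to 18553 Il7r counts in MAM libraries and 126 to 179 in RAM libraries. The standard error of the difference was 0.0988, the smallest among the 7 tested genes but Il4ra, around a log2 fold change of 6.53 (edgeR). As Il7r passed the filter through MAMs alone, its direction was fixed and its test is not used.

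Il21r, the private chain for IL-21, lies at chr7:125603429-125633570 on the plus strand. MAM replicates 1 to 5 held 53.6, 52.2, 46.2, 44.7 and 50.4 FPKM of Il21r. RAM replicates 1 to 5 held 0.453, 0.457, 0.812, 0.423 and 0.737 FPKM. All MAM libraries were far above the RAM libraries, among which replicates 3 and 5 were higher than the other 3. The RAM values rest on 39 to 78 counts per library, against 4938 to 8577 in MAMs. The SE was 0.207 around a log2 fold change of 6.59 (edgeR). Il21r also passed the filter through MAMs alone, which fixed its direction, and its test is not used.

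In RAMs, Il7r and Il21r stood at a share of their MAM level that few abundant genes fell below. With counts scaled to library totals alone, Il7r in RAMs was at 1.25% of its CPM in MAMs and Il21r at 1.21%. Of the 759 genes at or above the MAM level of Il7r, 20 had a lower share, and of the 2064 at or above that of Il21r, 38 had. Among the 86 genes over 1000 CPM in MAMs the lowest share was 1.06%, in C1qb, and 10 genes were under 1.5%. Among the 1901 genes over 100 CPM in MAMs, the lowest share was 0.768%, and 62 were under 1.5%. In the opposite direction the lowest of 65 genes over 1000 CPM in RAMs was Chil3 at 0.992%, the only gene of them under 1.5%. Of 1923 genes over 100 CPM in RAMs, 23 were under 1.5% and the lowest was at 0.537%. C1qb was chosen after its values were seen. When 1% of the other group's mean was subtracted from each library before the fit, the log2 fold change became 8.79 for Il7r and 8.87 for Il21r. With limma on log2(FPKM + 1), a scale that shrinks changes of low genes, it became 5.32 and 5.00. The fold changes of both genes are therefore set by how their low RAM level is treated, and the part of reads carried over between libraries in that level was not tested.

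**Figure D2:**
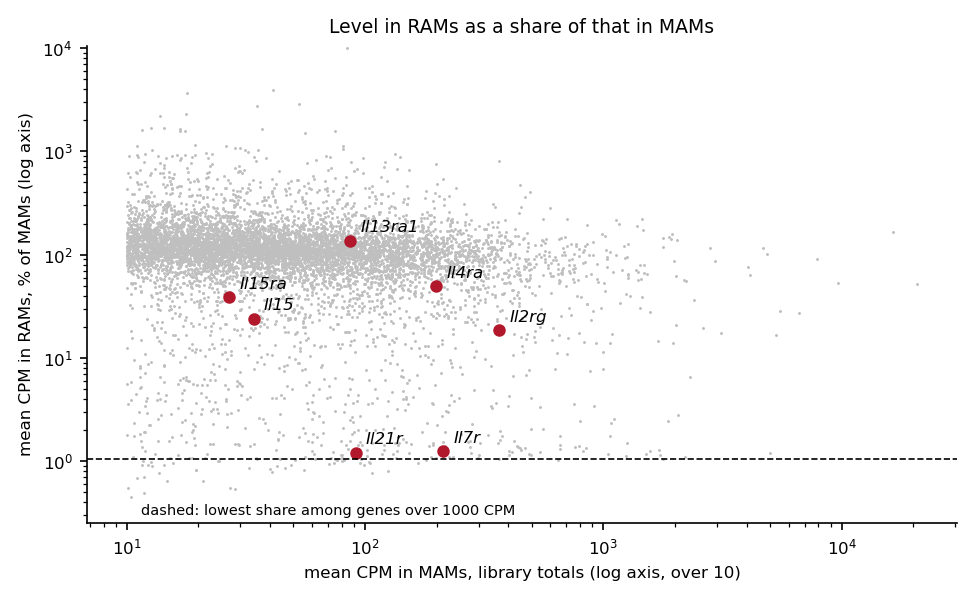
Mean CPM in RAMs as a percentage of mean CPM in MAMs against mean CPM in MAMs, both scaled to library totals and on log axes, for tested genes over 10 CPM in MAMs (grey points). Il7r (1.25%) and Il21r (1.21%) lie just above the dashed line at 1.06%, the lowest share among genes over 1000 CPM.

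The promoters of Il2rg, Il7r and Il21r are printed as those of the shared chain and of the chains with the largest changes, and that of Il15ra because it is the only other window with a motif. RefSeq (GRCm38.p6) windows of 300 bases, from 250 before to 50 after a start, were at hand for 7 of the 8 genes, 8 windows in all with 2 for Il15ra. Il15 had no entry. Letters of 4 motifs were looked for on both strands. These were the ISRE core GAAANNGAAA, in 3.44% of the 32841 windows of all genes, and the GAS element TTCNNNGAA, in 8.30%. The STAT6 type TTCNNNNGAA was in 6.95% and the PU.1 type GAGGAAG in 13.6%. At least 1 of the 4 was in 28.6% of all windows and in 2 of the 8 windows here. Capitals mark a match. The windows are chrX:101268206-101268505 (minus strand) for Il2rg, chr15:9529827-9530126 (minus) for Il7r, chr7:125603179-125603478 (plus) for Il21r and chr2:11705043-11705342 (plus) for Il15ra, each written 5′ to 3′ on the strand of its gene.
Il2rg: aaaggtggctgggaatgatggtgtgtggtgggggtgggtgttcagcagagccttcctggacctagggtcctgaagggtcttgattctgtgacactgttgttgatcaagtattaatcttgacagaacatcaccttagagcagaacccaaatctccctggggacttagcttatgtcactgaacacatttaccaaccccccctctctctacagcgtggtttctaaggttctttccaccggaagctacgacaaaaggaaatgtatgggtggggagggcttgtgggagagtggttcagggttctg
Il7r: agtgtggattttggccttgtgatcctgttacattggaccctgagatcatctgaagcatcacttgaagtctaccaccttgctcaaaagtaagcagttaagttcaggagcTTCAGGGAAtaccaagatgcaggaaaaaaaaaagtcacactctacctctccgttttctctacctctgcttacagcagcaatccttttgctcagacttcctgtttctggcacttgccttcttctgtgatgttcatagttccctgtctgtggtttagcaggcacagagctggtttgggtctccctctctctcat
Il21r: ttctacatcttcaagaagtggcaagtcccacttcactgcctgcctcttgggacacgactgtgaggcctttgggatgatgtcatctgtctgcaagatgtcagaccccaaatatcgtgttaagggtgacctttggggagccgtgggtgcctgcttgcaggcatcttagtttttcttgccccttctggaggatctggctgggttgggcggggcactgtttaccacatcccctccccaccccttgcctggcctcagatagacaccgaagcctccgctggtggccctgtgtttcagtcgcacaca
Il15ra: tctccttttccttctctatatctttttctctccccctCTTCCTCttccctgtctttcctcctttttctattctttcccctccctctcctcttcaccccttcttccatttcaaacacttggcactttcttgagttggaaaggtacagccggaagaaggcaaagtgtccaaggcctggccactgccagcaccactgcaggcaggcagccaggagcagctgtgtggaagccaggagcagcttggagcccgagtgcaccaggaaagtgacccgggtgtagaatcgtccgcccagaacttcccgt
The Il7r window holds TTCAGGGAA, a GAS match from -142 to -134 relative to the RefSeq start, which lies 300 bases downstream of the start in GENCODE. The Il15ra window holds GAGGAAG on the opposite strand from -213 to -207. A match describes letters, and binding was not measured here.

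Il4ra encodes the chain that binds IL-4 and is common to both receptors for it. It lies at chr7:125552120-125579474 on the plus strand, 23954 bases from Il21r with no annotated gene between them. In MAM replicates 1 to 5 its FPKM was 42.6, 52.5, 55.1, 55.8 and 45.5. In RAM replicates 1 to 5 it was 20.6, 24.3, 23.0, 19.5 and 22.1. The groups did not overlap, but the gap was far narrower than for Il21r beside it. The log2 fold change of Il4ra was 1.23 (SE 0.0886, adjusted p = 1.28e-08, edgeR). It fell to 1.06 with upper-quartile scaling and to 1.00 (1.002) with library totals, just over the 2-fold limit. Gm44876, annotated on the other strand, shares 571 exon bases with Il4ra, and the strand used in counting is not given in the sources used here.

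Il13ra1, the chain that joins IL-4RA to bind IL-13, was the only tested gene of the 7 that was not called. It lies at chrX:36112110-36171259 on the plus strand. Its FPKM was 32.5, 27.4, 20.5, 20.3 and 22.6 in MAM replicates 1 to 5. In RAM replicates 1 to 5 it was 29.7, 24.9, 27.0, 30.1 and 31.6. MAM replicate 1 was the highest library of all and MAM replicate 2 lay inside the RAM range, while the other 3 MAM libraries were below every RAM library. The log2 fold change was -0.23 (SE 0.127, adjusted p = 0.133, edgeR). The adjusted p passed 0.05 with library totals (-0.46, adjusted p = 0.00333), with upper-quartile scaling (-0.40, adjusted p = 0.0108) and without MAM replicate 1 (-0.36, adjusted p = 0.0111), never with a 2-fold change.

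Il15 encodes a cytokine of the family that macrophages themselves make, and lies at chr8:82331632-82403222 on the minus strand. MAM replicates 1 to 5 had 23.9, 27.8, 27.1, 16.8 and 18.4 FPKM of Il15. RAM replicates 1 to 5 had 2.55, 3.82, 3.22, 4.57 and 7.32 FPKM. MAM replicates 4 and 5 were the lowest of their group and RAM replicate 5 the highest of its group, and the groups stayed apart. The log2 fold change of Il15 was 2.27 (SE 0.235, adjusted p = 7.95e-07, edgeR).

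Il15ra encodes the chain that holds IL-15, and lies at chr2:11705290-11734317 on the plus strand, 12096 bases from Il2ra with no annotated gene between. Its FPKM in MAM replicates 1 to 5 was 23.8, 21.4, 20.2, 12.2 and 15.1. RAM replicates 1 to 5 had 5.65, 3.80, 5.16, 4.52 and 6.89 FPKM of Il15ra. The libraries with the lowest Il15ra among MAMs and the highest among RAMs were the same as for Il15, namely MAM replicates 4 and 5 and RAM replicate 5. Il2rg was likewise lowest and highest of its groups in these libraries. For Il15ra the log2 fold change was 1.59 (SE 0.181, adjusted p = 2.37e-06, edgeR).

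Il2ra encodes the chain that gives the IL-2 receptor its high affinity, and lies at chr2:11642807-11693193 on the plus strand. It did not reach the expression filter. MAM replicates 1 to 5 held 72, 489, 40, 126 and 31 Il2ra counts. RAM replicates 1 to 5 held 21, 0, 2, 0 and 0 counts, and a count of 0 allows up to 3, a limit that covers counting error only. MAM replicate 2 held more counts than the other 9 libraries together, and RAM replicate 1 most of those in RAMs. In the fit without a filter the log2 fold change was 5.11 (SE 1.32, adjusted p = 0.00438, edgeR). It was 3.96 without MAM replicate 2 (adjusted p = 0.0365) and 7.89 without RAM replicate 1. With limma on log2(FPKM + 0.1) it was 2.14, and on log2(FPKM + 1) it was 0.57 with an adjusted p of 0.0907. Ccr7, a marker of migrating dendritic cells, had 43, 310, 6, 136 and 28 counts in MAM replicates 1 to 5, and Cd209a had 53, 156, 0, 82 and 4. Both were highest in the same MAM replicates 2 and 4 as Il2ra. Of other dendritic cell genes, and among MAM libraries only, Zbtb46 (168 counts) was highest in MAM replicate 2 and Xcr1 (151), Itgae (249) and Clec9a (84) in MAM replicate 1. Of mast cell, basophil and eosinophil genes, again among MAM libraries only, Cpa3 (133 counts), Ms4a2 (33) and Kit (9) were highest in MAM replicate 2. Ccr3 (386) and Mcpt8 (79) were highest in MAM replicate 5. Ccr7, Cd209a and these 5 genes were chosen for this after their values were seen. The sort of MAMs kept CD11C- F4/80+ MRC1+ cells, a gate meant to leave dendritic cells out. The part of dendritic or mast cells in the Il2ra result was not tested.

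By FPKM the order in MAMs was Il2rg at 278 ± 56.5 (SD, n = 5), Il7r at 70.2 ± 3.52, Il4ra at 50.3 ± 5.94, Il21r at 49.4 ± 3.82, Il13ra1 at 24.6 ± 5.23, Il15 at 22.8 ± 4.99, Il15ra at 18.5 ± 4.75 and Il2ra at 0.610 ± 0.734. Ranges over the MAM libraries overlapped for Il4ra and Il21r, for Il13ra1 and Il15, and for Il15 and Il15ra. Within each MAM library, however, Il15 exceeded Il15ra, with Il15ra at 0.727 to 0.994 of it. In RAMs the order was Il2rg at 44.8 ± 6.13 (SD, n = 5), Il13ra1 at 28.7 ± 2.66, Il4ra at 21.9 ± 1.89, Il15ra at 5.20 ± 1.17, Il15 at 4.30 ± 1.85, Il7r at 0.779 ± 0.0296, Il21r at 0.576 ± 0.183 and Il2ra at 0.0198 ± 0.0362. The ranges of Il15ra and Il15 overlapped, as did those of Il7r and Il21r. RAMs thus carried transcripts of the shared chain and of the IL-4 and IL-13 receptor chains, while those of the IL-7 and IL-21 chains were under 1 FPKM. With counts per kilobase of exon in place of FPKM, Il13ra1 came before Il2rg in RAMs, with overlapping ranges, and Il15 before Il15ra. In that unit Il15 (11.7 to 19.5) and Il15ra (4.41 to 7.49) did not overlap in MAMs, nor did Il7r and Il21r in RAMs. Il21r and Il13ra1, apart by FPKM in MAMs, then overlapped.

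Ratios of chains within a library were taken from FPKM with 0.1 added, on the log2 scale, and tested by an exact two-sided permutation test with adjustment over the 7 ratios. Of the 252 splits the smallest p is 0.00794. Ranges of a ratio given on the linear scale are of FPKM with nothing added. Per transcript of the shared chain there was less of both IL-4 and IL-13 receptor chains in MAMs. Il13ra1 was between 0.0805 and 0.0933 of Il2rg in MAMs and between 0.579 and 0.679 in RAMs. The mean log2 ratio was -3.49 in MAMs and -0.64 in RAMs, a difference of -2.86 (exact p = 0.00794, the smallest possible, adjusted 0.0111). Il4ra was between 0.118 and 0.250 of Il2rg in MAMs and between 0.405 and 0.642 in RAMs, so that although Il4ra was higher in MAMs its log2 ratio to Il2rg was lower by 1.42 (difference -1.42, exact p = 0.00794, adjusted 0.0111). The balance of the IL-13 chain to the IL-4 chain also moved. On the log2 scale this follows from the ratios of both chains to Il2rg. Those ratios in turn reflect the fold changes of the single genes, so their p-values are not separate support. Il13ra1 exceeded Il4ra in each RAM library, at 1.03 to 1.54 of it, and was at 0.363 to 0.761 of it in MAMs (log2 difference -1.43, exact p = 0.00794, adjusted 0.0111).

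The ratios of the private chains for IL-7 and IL-21 to Il2rg were higher in MAMs. As both genes passed the filter through MAMs alone, these ratios are given as a description and their tests are not used. The adjustment over 7 ratios counts them, and over the other 5, an adjustment chosen after the data were seen, 0.0111 above becomes 0.0132. Il7r was between 0.179 and 0.329 of Il2rg in MAMs and between 0.0151 and 0.0200 in RAMs (log2 difference 3.70). Il21r was between 0.148 and 0.208 of Il2rg in MAMs and between 0.00949 and 0.0188 in RAMs (log2 difference 3.61). With 1 in place of 0.1 added to FPKM these differences were 2.73 and 2.41. Il15ra to Il15 overlapped between the groups, at 0.727 to 0.994 in MAMs and 0.940 to 2.21 in RAMs, with a log2 difference of -0.64 (exact p = 0.0238, adjusted 0.0278, or 0.0298 over the 5). The ratio of Il2ra to Il2rg rested on the value added, with a log2 difference of -0.48 (exact p = 0.421, adjusted 0.421) that was -2.03 with 1 added and 3.27 on counts per kilobase.

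**Figure D3:**
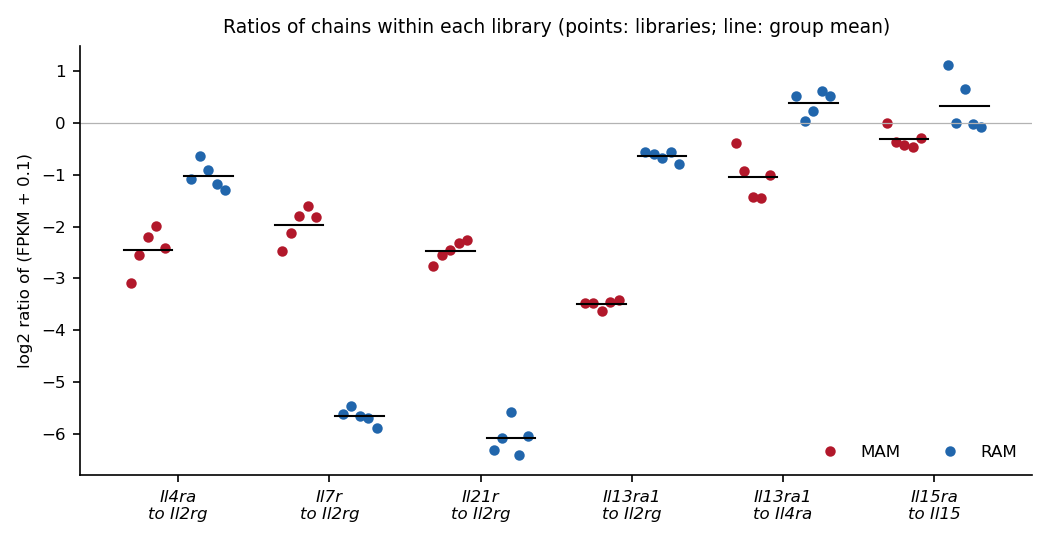
Log2 ratio of FPKM (0.1 added to each) of the gene pairs on the horizontal axis, in each MAM and RAM library (points), with the group mean as a line. The 5 ratios to the left keep MAMs and RAMs apart, and Il15ra to Il15 does not.

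The profiles most like each gene were found by the root mean square difference of centred log2 CPM over the 10 libraries. For Il2rg they were Tpst1 (0.123) and Ifih1 (0.140), and for Il7r Oasl1 (0.111) and Ly6a (0.119). Il21r had fewer close profiles, with Pdlim4 at 0.166 and Cd40 at 0.249, and 1 gene within 0.2. Il15 likewise had 1 gene within 0.2, the RIKEN gene 4930455G09Rik at 0.186, and next Tlr3 at 0.226. Il4ra was nearest to Malat1 (0.0894) and Rbms1 (0.0957), and 110 genes lay within 0.2 of it. For Il15ra the nearest were Asah2 (0.130) and Ccdc50 (0.131). Il13ra1, which hardly moved, had 226 genes within 0.2, the nearest being Ubxn6 (0.0745) and Man2b1 (0.109).

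Of the 4 other receptor chains of these cytokines only Crlf2 could be tested. It encodes the TSLP receptor chain that pairs with the product of Il7r, and had 22.1 to 27.9 FPKM in MAMs and 8.92 to 11.8 in RAMs. Its log2 fold change was 1.42 (SE 0.182, adjusted p = 8.16e-06, edgeR). Il2rb, the chain that IL-2 and IL-15 share, was under 1 FPKM on average in either group, with 7 to 111 counts in MAM libraries and 28 to 200 in RAM libraries, which overlap. Il9r had at most 30 counts in a library. Il13ra2, a decoy for IL-13, had 0 counts in all 10 libraries, where 3 counts would be 0.0431 to 0.0671 CPM.

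The ligands were near absence apart from IL-15 and IL-7. Il7 was the only one of the 7 other ligands to be tested, and it passed the filter through MAMs alone. It had 346, 361, 247, 173 and 279 counts in MAM replicates 1 to 5 and 114, 76, 26, 40 and 31 in RAM replicates 1 to 5. The groups did not overlap, yet the mean was only 1.45 FPKM in MAMs and 0.253 in RAMs. The log2 fold change of Il7 was 2.36 (SE 0.464, edgeR) and fell to 0.95, under 2-fold, with limma on log2(FPKM + 1). The filter fixed the direction of Il7, and its test is not used. Il2, Il9 and Il21 had 0 counts in all 10 libraries. Il4 had 3 counts in MAM replicate 1 and 8 in RAM replicate 2 and 0 elsewhere. Il13 had 2 and 5 counts in RAM replicates 1 and 2 and 0 elsewhere. Tslp had 1, 5 and 32 counts in MAM replicates 2, 3 and 4, and 0 in the other libraries.

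The 8 listed kinases and STAT factors that serve these receptors were all expressed, and 1 was called higher and 1 lower, near the 15.3% and 15.1% of all genes tested, with a median log2 fold change of 0.30. Jak2, a kinase that also serves receptors of other families, was the gene called higher, at a log2 fold change of 1.36 (SE 0.0969, adjusted p = 1.06e-08, edgeR). Stat5a, the main STAT of IL-2, IL-7 and IL-15, was lower, at 5.50 to 9.76 FPKM in MAMs and 15.4 to 19.9 in RAMs (log2 fold change -1.16, SE 0.153, adjusted p = 1.09e-05, edgeR). Stat5b was at -0.36, or -0.58 with library totals, under 2-fold. Stat6, the factor behind IL-4 and IL-13, was at 63.7 ± 5.63 FPKM in MAMs (SD, n = 5) and 58.4 ± 1.17 in RAMs. Its log2 fold change of 0.15 did not pass (adjusted p = 0.0775, edgeR) and turned to -0.072 with library totals and -0.012 with upper-quartile scaling. It passed without MAM replicate 1, at 0.19 (adjusted p = 0.0368). Jak3, bound to the shared chain, was at 0.56 (SE 0.159) with an adjusted p of 0.00775 in edgeR, which was 0.0900 with library totals. Jak1 was at 0.60, Stat3 at 0.45 and Tyk2 at -0.38 on the log2 scale, each under 2-fold. With library totals these were 0.38, 0.22 and -0.61, and Stat3 was at 0.28 with upper-quartile scaling. The shared chain therefore differed by more than the kinase it binds. Jak3 shares 404 exon bases with Insl3 on its own strand, and Stat3 and Stat5a overlap on opposite strands by 72.

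Of the 4 feedback inhibitors 2 were called higher and 2 lower (15.3% and 15.1% over all genes). Socs3 was at 34.4 to 56.8 FPKM in MAMs and 0.983 to 3.16 in RAMs, with a log2 fold change of 4.43 (SE 0.299, adjusted p = 5.87e-09, edgeR). Socs1, which IL-4 and interferons induce, was at 3.13 (SE 0.788, adjusted p = 0.00333, edgeR), and at 4.45 without RAM replicate 3, which held 126 counts. Cish and Socs2, the classical inhibitors induced by STAT5, were both lower. Cish was at 2.27 to 6.90 FPKM in MAMs and 10.0 to 13.3 in RAMs (log2 fold change -1.48, SE 0.249, adjusted p = 0.00012, edgeR). Socs2 was at 2.15 to 4.70 FPKM in MAMs and 9.35 to 13.2 in RAMs (log2 fold change -1.76, SE 0.223, adjusted p = 7.06e-06, edgeR). Cish overlaps antisense genes, so its reads are uncertain to that extent.

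Of 11 adaptors, PI3K subunits and phosphatases 10 were tested, with 0 called higher and 1 lower (15.3% and 15.1% over all genes) at a median log2 fold change of -0.115. The gene called was Irs2, an adaptor phosphorylated after IL-4 binds its receptor. It was at 17.4 to 24.9 FPKM in MAMs and 42.6 to 59.4 in RAMs, a log2 fold change of -1.26 (SE 0.126, adjusted p = 5.67e-07, edgeR). The count of those called lower was 3 with library totals and 2 with upper-quartile scaling, settings in which genes called lower over the whole table rose from 1745 to 2194 and 2058. DESeq2 also called 0 adaptors higher. In edgeR's fit 9 of the 10 had an adjusted p below 0.05 at any fold change, as did 56.2% of all genes tested.

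**Figure D4:**
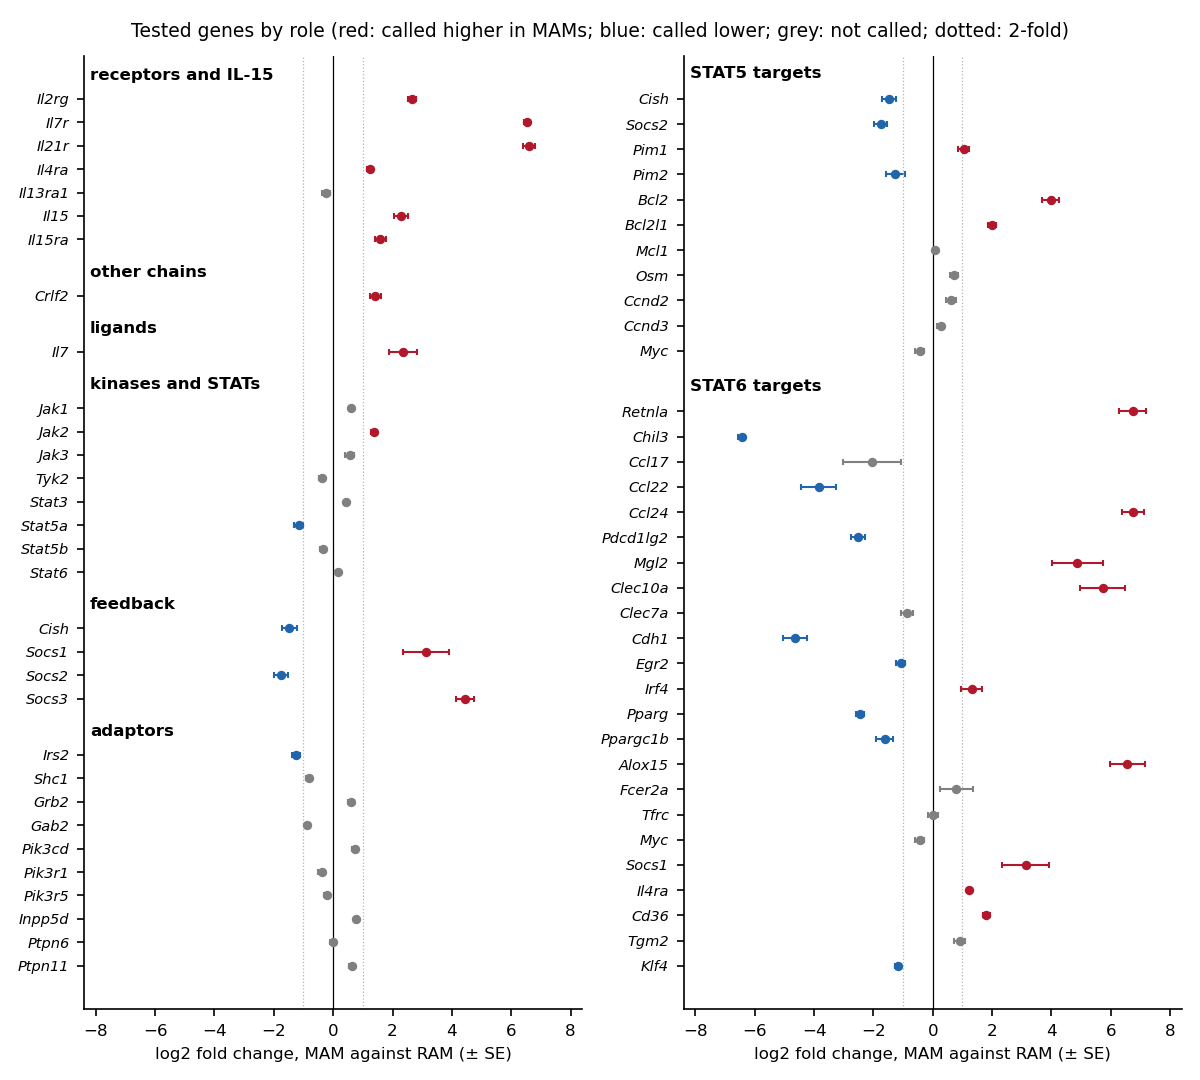
Log2 fold change of MAMs against RAMs with its SE for the tested genes of each role, red where called higher, blue where called lower and grey where not called. Il7r (6.53) and Il21r (6.59) lie farthest to the right among the receptors, and the STAT6 targets spread from Chil3 at -6.44 to Ccl24 at 6.76.

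Of 12 genes known as STAT5 targets 11 were tested, and 3 were called higher and 3 lower, where 15.3% and 15.1% of all genes were, and the median log2 fold change was 0.26. Bcl2, a survival factor, was at 3.97 (SE 0.289) and Bcl2l1, its relative, at 2.00 (SE 0.133), and the third gene called higher was Pim1, at 1.04 just over the limit. Bcl2 passed the filter through MAMs alone. The number called higher was 2 with library totals, with upper-quartile scaling and without MAM replicate 2 or RAM replicate 2. It was 4 with filterByExpr or no filter. The gene of this list that was not tested is Il2ra, described above, which was called higher in those 2 settings. Cish and Socs2, given above with the inhibitors, and Pim2 were the 3 called lower, 2 of them with limma. Mcl1, another survival gene and the most abundant of the list, hardly moved, at a log2 fold change of 0.06 (adjusted p = 0.444, edgeR). Pim1, Pim2 and Mcl1 were chosen after their values were seen.

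Next came genes known to be induced by IL-4 or IL-13 through STAT6 in mouse macrophages. Of 24 listed, 23 were tested, 9 were called higher and 8 lower (15.3% and 15.1% over all genes), and the median log2 fold change was 0.004. There were 5 that passed the filter through MAMs alone, namely Ccl24, Alox15, Mgl2, Clec10a and Fcer2a, and 1 through RAMs alone, Ccl22. The filter fixed the direction of these genes. Over the other settings 8 to 10 were called higher and 8 to 9 lower, and with a library left out 8 to 10 and 7 to 10. Ccl24, a chemokine for eosinophils, was at 17.6 to 49.4 FPKM in MAMs and 0.0993 to 0.484 in RAMs, a log2 fold change of 6.76 (SE 0.375). Retnla had 1114, 980, 398, 194 and 492 FPKM in MAM replicates 1 to 5 and 4.44 to 7.79 in RAMs, a log2 fold change of 6.74 (SE 0.453). Alox15 had 76.1, 73.4, 26.3, 7.42 and 20.8 FPKM in MAM replicates 1 to 5 and 0.338 to 0.573 in RAMs, a log2 fold change of 6.56 (SE 0.593). Retnla and Alox15 were highest in MAM replicates 1 and 2 and lowest in replicate 4, and the spread among MAMs was several times that of Il4ra. Chil3, a chitinase-like protein that is also a mark of alveolar macrophages, stood at the other end with 50.8 to 70.3 FPKM in MAMs and 5598 to 7641 in RAMs. Its log2 fold change was -6.44 (SE 0.114), and -11.62 after 1% of the other group's mean was subtracted. The other genes called higher were Mgl2, Clec10a, Irf4, Socs1, Cd36 and Il4ra itself, and the others called lower were Ccl22, Pdcd1lg2, Cdh1, Egr2, Pparg, Ppargc1b and Klf4, all named because they were called. Mgl2 and Clec10a resemble each other, as Chil3 does its relatives, and reads could be split between such copies. Over the pathway lists without the 8 genes, 53 of 64 genes were tested, 15 were called higher and 13 lower (15.3% and 15.1% over all genes), 46 reached an adjusted p below 0.05 (edgeR; 56.2% of all genes tested did) and the median log2 fold change was 0.26.

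**Figure D5:**
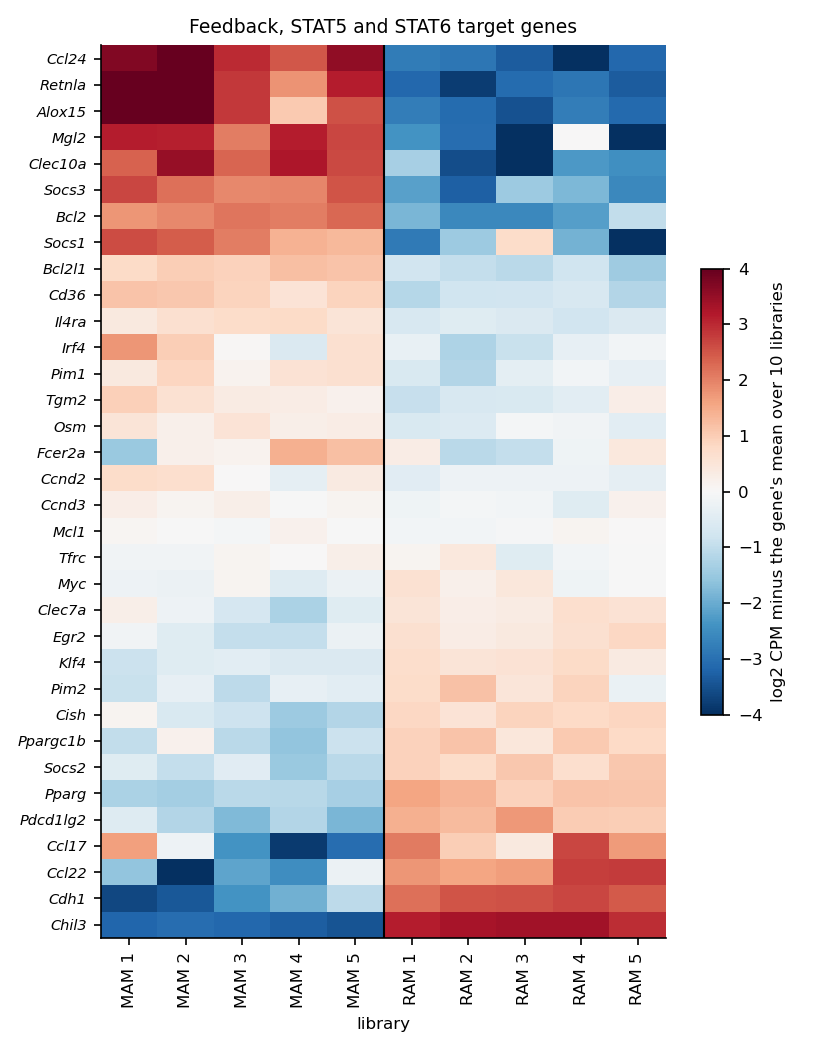
Log2 CPM minus the gene's mean over the 10 libraries (colour, limits -4 and 4) for tested feedback, STAT5 and STAT6 target genes, ordered by the difference between groups. MAM replicates 1 and 2 are darkest for Retnla and Alox15, and MAM replicate 4 is palest.

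Markers of the labelled cells were examined next. Over all genes tested 15.3% were called higher and 15.1% lower, and the counts for each marker list below are to be read beside these shares. Of 6 macrophage genes, 2 were called higher in MAMs and 1 lower, and Lyz2 was the most abundant at 19350 FPKM in MAMs. RAM replicate 1 is listed at 0.0 FPKM of Lyz2 although it held 1909687 counts of it, which is why the summed FPKM of the list was 1332 there and 25760 to 33060 in the other RAM libraries. Of the 10 alveolar macrophage genes in the files 9 were called lower in MAMs and 0 higher. Their summed FPKM was 215 to 374 in MAMs and 10050 to 12550 in RAMs. Chil3 was the most abundant in RAMs, and Marco in MAMs at 129 FPKM. Krt79, called lower, had passed the filter through RAMs alone. All 5 monocyte genes were called higher, 3 of them having passed the filter through MAMs alone, at a summed 277 to 366 FPKM in MAMs and 5.47 to 7.85 in RAMs. Plac8 was the most abundant of them, with a log2 fold change of 6.78 (SE 0.186). The sort kept LY6C- cells, a gate meant to leave out LY6C+ monocytes, and Ly6c2 is both on this list and a gene of that gate. The part of monocytes in the receptor levels was not tested.

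Lymphocytes carry several of the receptors examined here, so their markers were set beside them. Of 12 T cell genes 4 were tested, with Cd4 called higher and Lat lower, all of them through 1 group alone, and the summed FPKM was 5.91 to 12.6 in MAMs and 2.70 to 8.43 in RAMs. Cd4, which mouse macrophages can also express, was the most abundant. Cd28 did not reach the filter and was at 2.72 without it (adjusted p = 0.0031, edgeR). Each of the 3 B cell genes tested missed the threshold, and their list summed to 3.14 to 13.5 FPKM in MAMs and 2.42 to 9.91 in RAMs. Cd79b, the most abundant, was at 0.37 (adjusted p = 0.738, edgeR), and at -0.085 without MAM replicate 3. Of 10 NK and innate lymphoid genes only Prf1 was tested, through RAMs alone, and it was lower in MAMs by a log2 fold change of -5.28 (-2.34 with limma on log2(FPKM + 1)), with sums of 0.660 to 2.06 FPKM in MAMs and 4.85 to 7.58 in RAMs. No T, B, NK or innate lymphoid gene listed was at 0 counts in all libraries. The sort kept F4/80+ MRC1+ cells of large size, a gate meant to leave lymphocytes out, and their part in the receptor levels was not tested.

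Markers of other cells moved too. Of 7 dendritic cell genes 2 were tested, each having passed the filter through 1 group alone, which fixed its direction. Ccr7 was called higher and Clec9a, the most abundant, lower (-4.26, or -2.05 with limma on log2(FPKM + 1)), and the sums overlapped at 1.25 to 6.94 FPKM in MAMs and 4.58 to 6.58 in RAMs. Of 8 neutrophil genes 3 were tested, with 2 higher and 1 lower, and Elane was at 0 counts throughout. The sums were 15.4 to 65.7 FPKM in MAMs and 14.1 to 25.4 in RAMs. MAM replicates 4 and 5 stood apart at 65.7 and 36.8, against 15.4, 18.6 and 18.9 in replicates 1 to 3. MAM replicates 4 and 5 were also the lowest of their group for Il15, Il15ra and Il2rg (223 and 242 FPKM of Il2rg). This match was picked after the values were seen, and a link between these levels was not tested. S100a8 led this list at a log2 fold change of 1.12 (adjusted p = 0.0353, edgeR), and was not called without MAM replicate 4 (0.78) or under several other settings. None of the 8 eosinophil, basophil and mast cell genes reached the filter, and Prg2 and Fcer1a were at 0 counts throughout. Ccr3 led at 0.452 FPKM in MAMs, with 127 and 386 counts in MAM replicates 4 and 5. It was at 5.98 without a filter (adjusted p = 0.00183, edgeR) and at 0.45 with limma on log2(FPKM + 1) (adjusted p = 0.135). Epithelial and tumour genes summed to 8.21 to 29.2 FPKM in MAMs and 570 to 712 in RAMs, with 4 of the 5 tested called lower, 1 of them tested through RAMs alone, and Krt19 the most abundant at -6.17. The fifth, Krt18, was tested through MAMs alone and not called (3.93, adjusted p = 0.0715, edgeR), with 435 counts in MAM replicate 1 and 0 to 9 in the other MAM libraries, against 0 to 21 in RAMs. Krt8, which did not reach the filter, had 34 to 148 counts in MAMs and 0 to 12 in RAMs (4.95 without a filter, adjusted p = 0.00564, edgeR). Krt18 and Krt8 were chosen after their values were seen. All 4 tested genes of stroma and endothelium were called higher, in a direction that was fixed since they passed the filter through MAMs alone, with sums of 6.36 to 13.4 FPKM in MAMs and 0.555 to 2.78 in RAMs, and Pecam1 led at 2.86, or 1.71 with limma on log2(FPKM + 1). The gate asked for CD45+ F4/80+ cells, which leaves out cells of epithelium, tumour, stroma and endothelium by intent, and the part of any of these cells in the receptor levels was not tested.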

How the data were processed

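RNA-seq counts of 5 MAM and 5 RAM libraries were analysed, grouped by the titles in the sample records. The authors aligned reads to GRCm38 with TopHat2 (2.0.13), counted uniquely mapped reads per gene on RefGene models with HTSeq (0.6.1) and deposited the counts without normalization. The FPKM values were made by the authors with Cufflinks (2.2.1), scaled by transcript length and mapped fragments. Lines naming no gene, 56.5% of the total in MAMs and 63.2% in RAMs on average, stayed out of library sizes and tests. Each library had between 50746305 and 87523247 counts on genes. All lines of a library summed to between 131053712 and 201197753, above the number of paired-end reads that the methods give. Whether both mates of a fragment were counted is not known, and a count is not a fragment. Reads carry no molecular identifiers, so limits from a count of 0 cover counting error only.

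The 11571 genes whose mean FPKM reached 1 in either group were tested with edgeR 4.0.16 (R 4.3.3) by its quasi-likelihood test with TMM scaling, and p-values were adjusted by the Benjamini-Hochberg method over all of them. CPM are counts scaled by the TMM-adjusted library size. SE is the fold change divided by the square root of F. Alternatives were DESeq2 1.42.0, RLE, upper-quartile and library-total scaling, a block for the replicate number, filterByExpr, no filter, limma 3.58.1 on log2(FPKM + 1) and log2(FPKM + 0.1), 1% of the other group subtracted, and each library left out. Ratios were also taken with 1 added and on counts per kilobase of merged GENCODE M21 exons with 0.5 counts added, and adjusted over 5 ratios in place of 7, which was chosen after seeing the data.

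Named are the 8 genes, all other listed chains, ligands, kinases, STAT factors and inhibitors, up to 4 genes with the largest called change from each target or adaptor list (others of these lists were added because they were called or after their values were seen), the most abundant gene of each cell list, the 2 most similar profiles to each gene and overlapping or neighbouring genes. Further genes of the cell lists were named because they were called or after their values were seen. The most abundant gene of a cell list is that with the highest mean FPKM over all 10 libraries, unless a group is named. The 8 genes and all lists were chosen with earlier results of these data known. Of the genes listed at the start 2 are not reported here, and the counts of their lists leave them out. Protein sequences were not used here.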

Additional observations from a re-analysis of the deposited data

Results flagged for a closer look

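Within groups of 5 libraries, a library was singled out where its gap to the nearest other exceeded the critical share of the range in Dixon's test. Of 142 groups examined 14 met this. Chance gives about 1 in 20 for normally distributed values, which low counts are not, so no excess can be read from this number. All values are CPM.

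Il2ra was at 9.17 in MAM replicate 2, against 0.445 to 2.28 in the other MAMs, and at 0.36 in RAM replicate 1, against 0 to 0.0414. Il9r was at 0.171 in RAM replicate 1 and 0 in the other RAMs. Il4 was at 0.061 in MAM replicate 1 and at 0.12 in RAM replicate 2, with 0 in the rest of either group. Tslp was at 0.579 in MAM replicate 4, against 0 to 0.112. Counts of these 4 genes were low.

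Itgax, the gene of CD11C, stood at 240 in MAM replicate 1, against 145 to 163 in the others. Cish was lowest in RAM replicate 2, at 27.3 against 32.7 to 34.7. Socs1 was at 2.61 in RAM replicate 3, against 0.0426 to 0.556. In RAM replicate 1 Cd4 was at 2.09, against 0.0209 to 0.48, and Ptprc, the gene of CD45, at 1130 against 1040 to 1060. Ccr3 was at 0.0835 in RAM replicate 4, against 0 to 0.0207, also on low counts (0 to 4 in RAM libraries). Ly6c1 was at 5.19 in MAM replicate 3, against 0.183 to 1.34. The RIKEN gene 4930455G09Rik was at 2.88 in RAM replicate 5, against 1.18 to 1.67.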

How the results depend on the processing

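The 6 genes called higher were called under all 10 alternatives and with each library left out, and filterByExpr and the fit without a filter added Il2ra, which made 7. No gene of the 8 was called lower under any of these. Pathway genes called higher numbered 13 to 17 over the alternatives and 14 to 16 with a library left out, and those called lower 13 to 16 and 12 to 15. Ligands called higher were 0 with limma on log2(FPKM + 1) and 2 without a filter. Adaptors called lower were 3 with library totals and 2 with upper-quartile scaling.

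Il13ra1 was at -0.46 with library totals and -0.40 with upper-quartile scaling, and between -0.36 and -0.17 with a library left out. Il2ra was at 0.57 with limma on log2(FPKM + 1) and between 3.96 and 7.89 with a library left out. The log2 difference in the ratio of Il2ra to Il2rg was -2.03 with 1 added to FPKM and 3.27 on counts per kilobase. On counts per kilobase Il2rg ranked 2 and Il13ra1 ranked 1 in RAMs, Il15 ranked 4 and Il15ra ranked 5. Stat6 was at -0.072 with library totals and -0.012 with upper-quartile scaling. Lyz2 was at 3.11 with limma on log2(FPKM + 0.1) and 2.45 on log2(FPKM + 1), with RAM replicate 1 listed at 0.0 FPKM. Cd79b was between -0.085 (without MAM replicate 3) and 0.823 (without RAM replicate 4) with a library left out. The cause of these changes was not tested.

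No pairing of samples by replicate number was seen. Libraries with the same number had correlations of -1e-04, -0.0366, 0.0294, 0 and 0.0146 in their deviations from the group means. Between libraries with different numbers they ran from -0.0357 to 0.0331. Such values cannot show whether samples with the same number were prepared together. With the number as a block, 6 of the genes were again called higher, and 1753 genes in all were higher and 1773 lower, against 1766 and 1745 without it.

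Precision is limited by 5 libraries a group, by pooled mice in MAMs, and for Il2ra by low counts. The sorted cells differ in tissue, surface markers and origin at the same time, and these cannot be told apart.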
